A study of Mus musculus with 6 samples.

Results

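The ZBTB transcription factors were taken by name from the deposited expression table, as every gene whose symbol is *Zbtb* followed by a number and at most a few letters. The rule found 41 of the 55421 genes listed. One of them, *Zbtb8os*, carries the name of its neighbour only: it encodes archease, a cofactor of the tRNA splicing ligase, and its coding sequence held no zinc finger pattern. The other 40 each held at least 1. A mean of at least 10 normalized counts over the 6 libraries was reached by 37 of the 41, which were tested, and 4 were too low to test.

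ZBTB proteins join an N-terminal BTB domain, through which they pair with each other and recruit co-repressors such as NCOR and BCOR or the CUL3 ubiquitin ligase, to C-terminal C2H2 zinc fingers that read DNA. Most are repressors. In lymphocytes several of them set lineage choice or the fate of activated cells, and their relative BCL6 is the repressor that defines germinal center B cells.

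The samples were GFP+ splenic B cells in which CD21-cre had been active, sorted after 24 h with IL-4 (5 ng/ml) and LPS (5 μg/ml). The control cells, called WT, came from CD21-cre mice and the hnRNPL-deficient cells from hnRNPL F/F CD21-cre mice, with 3 libraries each. All animals, controls included, carried the cre transgene and the Rosa mT/mG reporter on a C57BL6/J background, and males and females older than 6 weeks were used in the study. CD21-cre acts mainly in mature peripheral B cells. The comparison asks which ZBTB transcripts differ in level in cells without hnRNPL, an RNA-binding regulator of splicing, and since the values are totals per gene they say nothing of isoforms.

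*Hnrnpl* itself had normalized counts of 24371, 25580 and 24174 in WT and of 2178, 1519 and 1297 in hnRNPL-deficient libraries, 6.74% of the WT mean. Libraries held 40395186 to 75180749 reads on genes, of which the members took 0.116 to 0.125%. The 7 B cell markers summed to between 277632 and 355972 normalized counts in WT and to between 271886 and 322100 in hnRNPL-deficient libraries. Of 6 T cell markers only *Thy1* had a mean of 10 or more, and their sum was 144 to 198 in WT and 122 to 368 without hnRNPL. The sum of 6 myeloid markers was 260 to 331 in WT and 1239 to 1382 without hnRNPL. This was mostly *Adgre1*, since *C1qa* and *S100a8* were at 0 and *Lyz2* and *Csf1r* had means under 10. *Adgre1* rose 4.71-fold (adjusted p = 0.000139, limma). Dendritic markers, mostly *Flt3*, summed to 407 to 522 and 417 to 447, with *Clec9a*, *Siglech* and *Itgax* at 0, and *Xcr1* rose 2.73-fold, to at most 27.4 normalized counts (adjusted p = 0.0370, limma). The 4 plasma cell markers, mostly *Prdm1*, summed to 1640 to 1838 and 1389 to 1908, and *Jchain* fell to 17.5% of its WT mean (adjusted p = 0.0509, limma). The part of these markers in the results on the members was not tested.

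Of the 37 tested members, 2 changed. *Zbtb32* fell and *Zbtb42* rose. A gene was called changed at an adjusted p under 0.1 (limma on log2(normalized count + 1), Benjamini-Hochberg over all genes tested) and a fold change of at least 1.5, which is 0.58 on the log2 scale. By the same rule 11.4% of the 17640 genes tested were called, 7.28% higher and 4.08% lower, against 5.41% of the members. At an adjusted p under 0.1 and any fold there were 3 members, 8.11%, against 18.0% of all genes. The median log2 fold change of the members was 0.07 and that of all genes was -0.03. The median size of the change was 0.14 for members and 0.28 for all genes. The median standard error was also smaller for members, 0.14 against 0.19, so these sizes were not compared at equal precision. Higher means on the log2 scale without hnRNPL were seen for 21 members and lower means for 16, against 8336 and 9304 of all tested genes. For members the numbers were 26 and 11 when libraries were scaled to equal totals. In these bulk samples fewer cells with a transcript and less of it per cell cannot be told apart.

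**Figure D1:**
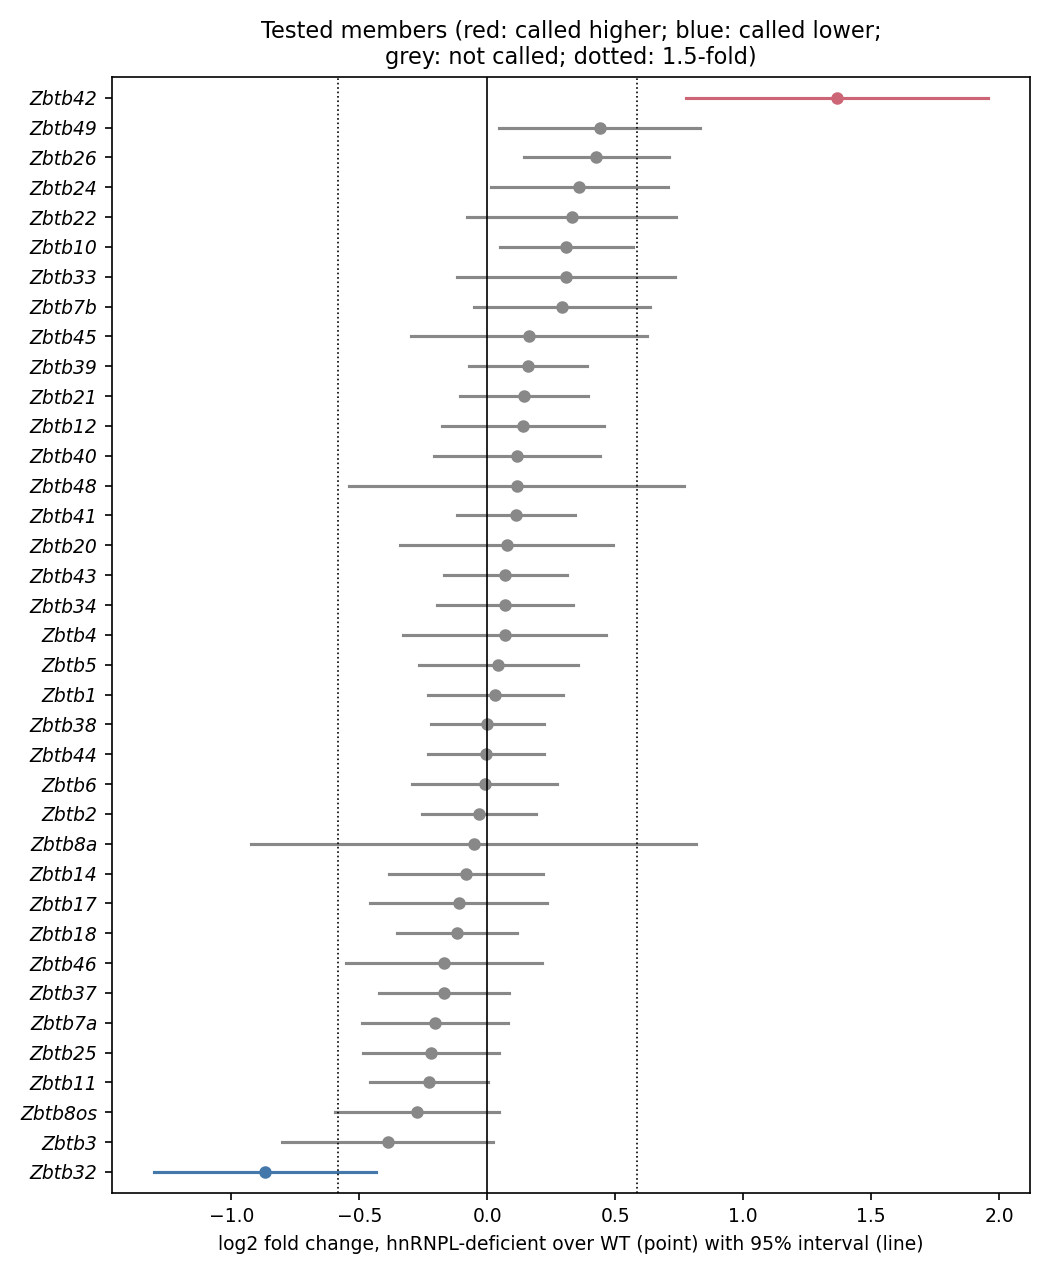
Log2 fold change (hnRNPL-deficient over WT, x axis) of the 37 tested members, with points for the estimates and lines for the 95% intervals. *Zbtb42* at 1.37 and *Zbtb32* at -0.87 lie past the dotted 1.5-fold lines, and the other 35 lie between them.

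**Figure D2:**
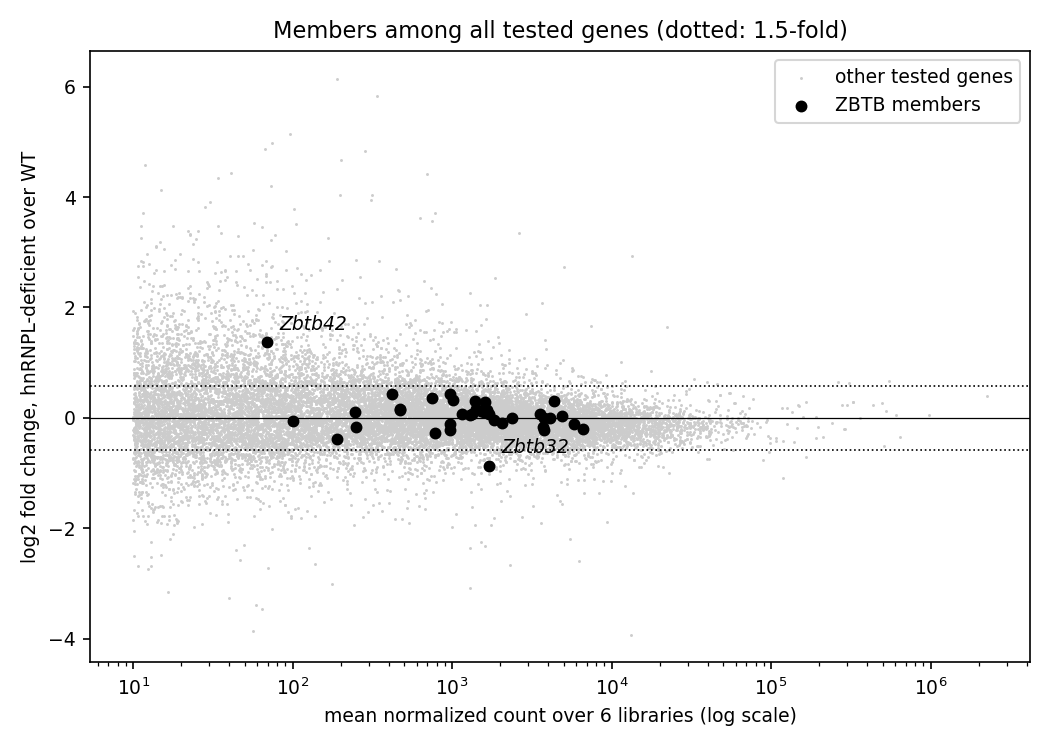
Log2 fold change (y axis) against the mean normalized count over 6 libraries (x axis, log scale) for 17640 tested genes in grey and the 37 ZBTB members in black. Members other than *Zbtb32* and *Zbtb42* stay within the dotted 1.5-fold lines.

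*Zbtb32* encodes a lymphocyte repressor, also known as ROG, that restrains T cell cytokine genes and limits recall antibody responses of memory B cells. It had 2315, 2462 and 1783 normalized counts in WT libraries 1, 2 and 3. In hnRNPL-deficient libraries 1, 2 and 3 it had 1105, 1541 and 979. All 3 hnRNPL-deficient libraries lay below all 3 WT libraries. The means were 2186 ± 357 and 1208 ± 295 (SD, n = 3 each), so that 55.3% of the WT level was left. The log2 fold change was -0.87 with an SE (standard error) of 0.19, a 95% interval from -1.30 to -0.43 and an adjusted p of 0.0236 (limma). Fits that each lacked 1 library gave log2 fold changes from -1.06 to -0.73, and the adjusted p reached at most 0.0806. *Zbtb32* (chromosome 7, 30589681 to 30598909, minus strand, GRCm38) lies 1.77 Mb from *Hnrnpl*. Sequence linked to the floxed allele and the loss of hnRNPL cannot be told apart for a gene so placed. The only other member on chromosome 7, *Zbtb45*, a close relative of *Zbtb20*, lies 15.8 Mb from *Hnrnpl* and had a log2 fold change of 0.16 (adjusted p = 0.640, limma).

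RefSeq (GRCm38.p6) gives *Zbtb32* 2 start sites. The 250 bases before each are shown, because this is the one member that fell. Motifs would be in capitals, and neither window holds any of those searched, which were the E-box CACGTG, the STAT6 site TTCNNNNGAA and the p53 half-site by its usual consensus, on both strands. These 3 motifs do not overlap in the windows shown, and no match says only that the letters are not in the window.
Zbtb32, first start site, chr7:30598910-30599159, minus strand: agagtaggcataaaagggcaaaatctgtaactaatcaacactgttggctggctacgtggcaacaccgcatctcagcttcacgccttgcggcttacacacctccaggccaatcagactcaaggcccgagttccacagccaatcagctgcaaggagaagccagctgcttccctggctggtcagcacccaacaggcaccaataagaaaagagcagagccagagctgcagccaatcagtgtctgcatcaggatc
Zbtb32, inner start site, chr7:30592943-30593192, minus strand: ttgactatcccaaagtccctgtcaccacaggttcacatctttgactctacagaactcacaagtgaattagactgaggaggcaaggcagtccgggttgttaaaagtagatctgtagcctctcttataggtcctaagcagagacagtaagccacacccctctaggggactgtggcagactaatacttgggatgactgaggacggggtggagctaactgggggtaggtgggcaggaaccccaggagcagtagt

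*Zbtb42* encodes a protein close in sequence to ZBTB18 and best known from skeletal muscle. It was the member with the lowest level per exon length of those tested. It had 32.5, 42.4 and 39.0 normalized counts in WT replicates 1, 2 and 3, against 120.8, 89.9 and 89.1 in the hnRNPL-deficient ones. The groups did not overlap, and the lowest hnRNPL-deficient library was above the highest WT library by more than the range within WT. The means were 38.0 ± 5.02 and 99.9 ± 18.1 (SD, n = 3 each), a ratio of 2.63. The log2 fold change was 1.37 with an SE of 0.26, a 95% interval from 0.78 to 1.96 and an adjusted p of 0.0135 (limma). Fits that each lacked 1 library gave 1.22 to 1.45, with adjusted p values up to 0.0590. *Zbtb42* (chromosome 12, 112678828 to 112682747, plus strand) shares no exonic bases with another gene on its strand. Its relative *Zbtb18* did not move with it and is described below with the most abundant members.

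The 250 bases before the RefSeq start of *Zbtb42*, the one member that rose, hold 30 CpG dinucleotides and 1 p53 half-site, given in capitals. A p53 half-site was present in 7.13% of all 32851 promoter windows of this length and in 5 of the 48 windows of the members, so the match is a description of the letters only.
Zbtb42, chr12:112678590-112678839, plus strand: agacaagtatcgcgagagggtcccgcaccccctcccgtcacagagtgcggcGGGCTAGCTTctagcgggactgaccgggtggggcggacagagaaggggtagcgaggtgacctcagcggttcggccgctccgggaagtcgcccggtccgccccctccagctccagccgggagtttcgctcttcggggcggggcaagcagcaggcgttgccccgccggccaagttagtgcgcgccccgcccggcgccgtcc

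*Zbtb26*, a ZBTB gene of little known function, was the third member under the adjusted p of 0.1. It had 877, 855 and 742 normalized counts in WT, against 1077, 1043 and 1203 in hnRNPL-deficient libraries, with no overlap. The log2 fold change of 0.43 (SE 0.12, 95% interval 0.14 to 0.71, adjusted p = 0.0616, limma) was under 1.5-fold, so the gene was not called. Its adjusted p was 0.1 or more in 5 of the 6 limma fits that left out a library, up to 0.207 without WT library 3. In the other limma fits of all 6 libraries it stayed under 0.1, up to 0.0981 without a mean-variance trend. On the reads of 5 libraries it was 0.0737 with edgeR and 0.0338 with DESeq2. By the GENCODE gene bounds, *Zbtb26* and *Zbtb6* start 36 bases apart on the same strand of chromosome 2. Of the exonic bases of *Zbtb26*, 4.73% are shared with *Zbtb6*. The RefSeq starts are not adjacent, at 37443172 for *Zbtb26* and 37430919 for *Zbtb6*. *Zbtb6* itself had a log2 fold change of -0.01 (95% interval -0.29 to 0.27). The window before the RefSeq start of *Zbtb26* is shown as that of the third member and holds 1 STAT6 site in capitals, a motif found in 5.85% of all windows and in 2 of the 48 member windows.
Zbtb26, chr2:37443173-37443422, minus strand: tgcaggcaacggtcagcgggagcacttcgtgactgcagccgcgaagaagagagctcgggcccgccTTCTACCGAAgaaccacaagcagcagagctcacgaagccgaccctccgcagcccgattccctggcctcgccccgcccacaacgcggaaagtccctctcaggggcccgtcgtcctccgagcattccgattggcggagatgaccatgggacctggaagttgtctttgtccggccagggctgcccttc

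**Figure D3:**
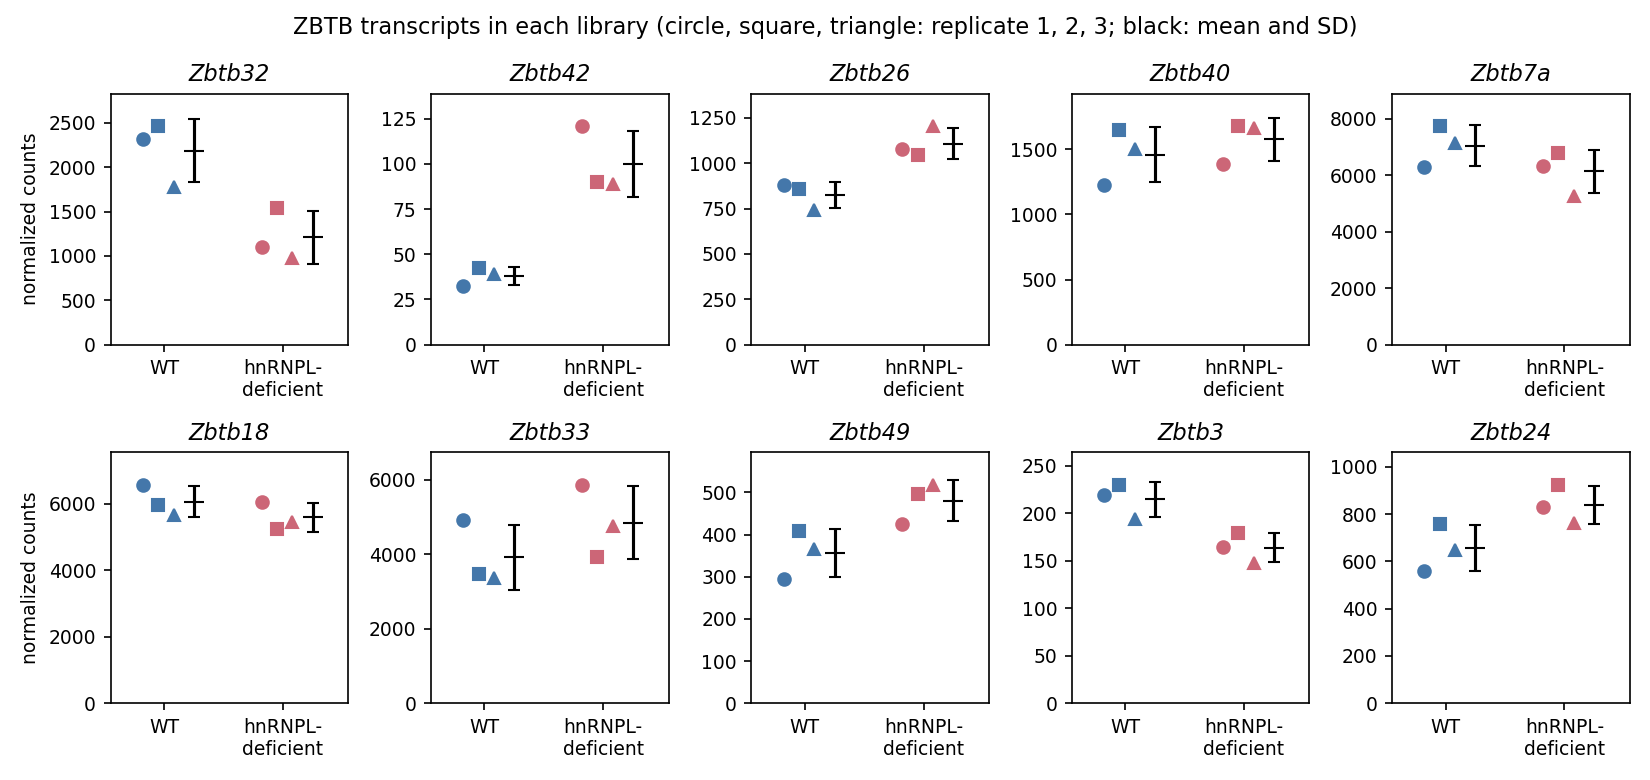
Normalized counts (y axis, from 0) of 10 members in each WT (blue) and hnRNPL-deficient (red) library, with the replicate shown by the symbol and the mean and SD (n = 3) in black. For *Zbtb32* all red symbols lie below the blue ones, for *Zbtb42* and *Zbtb26* all lie above, and for *Zbtb40*, *Zbtb7a*, *Zbtb18* and *Zbtb33* the colors overlap.

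The 3 largest changes among members that did not pass the main test at any fold were those of *Zbtb49*, *Zbtb3* and *Zbtb24*. With the replicate number as a block, *Zbtb49* and *Zbtb24* came under the adjusted p of 0.1. *Zbtb49*, known as an activator of *Cdkn1a*, had 294, 407 and 366 normalized counts in WT and 426, 497 and 518 without hnRNPL, a log2 fold change of 0.44 (SE 0.17, adjusted p = 0.141, limma). *Zbtb3* had 219, 230 and 194 normalized counts in WT and 164, 179 and 148 without hnRNPL, a log2 fold change of -0.39 (SE 0.18, adjusted p = 0.204, limma). The groups of both genes did not overlap, although neither passed in the main fit. *Zbtb24*, the factor that activates *Cdca7* and is mutated in immunodeficiency with centromeric instability, had 561, 757 and 649 normalized counts in WT. Without hnRNPL it had 829, 924 and 762, again with no overlap, and a log2 fold change of 0.36 (SE 0.15, adjusted p = 0.164, limma).

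Groups without overlap were found for 12 of the 37 tested members, 32.4%, against 34.0% of all tested genes. Lower in every hnRNPL-deficient library were *Zbtb32*, *Zbtb3*, *Zbtb8os*, *Zbtb11* and *Zbtb25*. Higher in every one were *Zbtb42*, *Zbtb49*, *Zbtb26*, *Zbtb24*, *Zbtb10*, *Zbtb39* and *Zbtb12*. Of these 12 genes, the 10 other than *Zbtb32* and *Zbtb42* differed by less than 1.5-fold.

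Among the 35 members not called, 24 had a 95% interval inside 1.5-fold in both directions, so a larger change of these lies outside the interval. The interval reached past 1.5-fold for 11, namely *Zbtb3*, *Zbtb8os*, *Zbtb8a*, *Zbtb48*, *Zbtb45*, *Zbtb7b*, *Zbtb33*, *Zbtb22*, *Zbtb24*, *Zbtb26* and *Zbtb49*. It was widest for *Zbtb8a*, at -0.92 to 0.82. WT library 1 had 183 normalized counts of *Zbtb8a* and the other 5 libraries had between 66.5 and 107. *Zbtb48* followed with -0.54 to 0.77, and here WT library 1 was the lowest, at 156 against 211 to 329 in the others. Over all tested members WT library 1 was the WT library farthest from the other 2 for 17 of 37, 45.9%, against 56.7% of all genes. For WT library 3 the share was higher among members, 13 or 35.1% against 19.2%, and for WT library 2 it was 7 or 18.9% against 24.1%.

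Members with a known part in lymphocytes or dendritic cells are *Zbtb1*, *Zbtb7a*, *Zbtb7b*, *Zbtb16*, *Zbtb17*, *Zbtb20*, *Zbtb24*, *Zbtb25*, *Zbtb32* and *Zbtb46*. Of 9 tested, *Zbtb32* fell and none rose, so 11.1% were called against 11.4% of all tested genes. *Zbtb7a*, whose product LRF is needed for the B over T lineage choice and for germinal centers, had 6285, 7733 and 7130 normalized counts in WT and 6332, 6788 and 5277 without hnRNPL. The libraries of the groups overlapped, at a log2 fold change of -0.20 (95% interval -0.49 to 0.08, adjusted p = 0.335, limma). *Zbtb17*, which encodes MIZ-1, the partner of MYC in repression, had a log2 fold change of -0.11 (95% interval -0.46 to 0.24). *Zbtb1*, required for lymphoid development, was at 0.03 (-0.23 to 0.29) and *Zbtb20*, which sustains long-lived plasma cells, at 0.08 (-0.34 to 0.49). *Zbtb25* was at -0.22 (-0.49 to 0.05) and *Zbtb7b*, which encodes the CD4 lineage factor ThPOK, at 0.29 (-0.05 to 0.64). *Zbtb46*, a marker of classical dendritic cells, had 220 to 288 normalized counts over the 6 libraries and a log2 fold change of -0.17 (-0.55 to 0.22). *Zbtb16*, which encodes PLZF of innate-like T cells, was at 0 in 5 libraries and had 4 reads in hnRNPL-deficient library 1.

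ZBTB proteins known to act on *Cdkn1a* or the p53 pathway are encoded by *Zbtb2*, *Zbtb4*, *Zbtb5*, *Zbtb7a*, *Zbtb17* and *Zbtb49*, and none of the 6 was called with limma, edgeR or DESeq2. The log2 fold change was -0.03 for *Zbtb2* (95% interval -0.25 to 0.19), 0.07 for *Zbtb4* (-0.33 to 0.46) and 0.04 for *Zbtb5* (-0.27 to 0.36). Of the 6, only *Zbtb49* had an unadjusted p under 0.05 in limma. Over all tested genes, 11.4% were called and 27.4% had an unadjusted p under 0.05 (limma).

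The proteins that bind methylated CpG are ZBTB33, or Kaiso, with ZBTB4 and ZBTB38. None of their 3 genes was called with limma, edgeR or DESeq2, or had an unadjusted p under 0.05 in the main limma fit. The shares over all tested genes were 11.4% called and 27.4% with an unadjusted p under 0.05 (limma). *Zbtb33* had 4932, 3478 and 3353 normalized counts in WT and 5870, 3921 and 4751 without hnRNPL. The first library of each group was its highest. The groups overlapped, and the estimated log2 change was 0.31 (SE 0.19, adjusted p = 0.327, limma). With the replicate number as a block the adjusted p of *Zbtb33* was 0.0440 (limma). *Zbtb38* had almost equal means, 3766 and 3774 normalized counts, and a 95% interval of the log2 fold change from -0.22 to 0.22.

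Members linked to telomeres are *Zbtb10*, *Zbtb34*, *Zbtb40* and *Zbtb48*, the last encoding TZAP, which binds telomeric repeats and trims them. All 4 had a mean above WT, and none was called with limma, edgeR or DESeq2. Only *Zbtb10* had an unadjusted p under 0.05 in limma. Among all tested genes 11.4% were called and 27.4% had an unadjusted p under 0.05 (limma). *Zbtb40* had 1227, 1645 and 1503 normalized counts in WT and 1387, 1677 and 1667 without hnRNPL. The libraries of the groups overlapped, at a log2 change of 0.12 (SE 0.14, 95% interval -0.21 to 0.44, adjusted p = 0.629, limma), and without WT library 1 the estimate was -0.0012. *Zbtb10* had 1320, 1242 and 1157 in WT and 1501, 1429 and 1682 without hnRNPL, a log2 fold change of 0.31 (SE 0.11, adjusted p = 0.122, limma). *Zbtb34* was at 0.07 (95% interval -0.20 to 0.34) and *Zbtb48* at 0.12.

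The remaining members have other roles or roles that are less well known. *Zbtb11*, a regulator of hematopoietic and mitochondrial genes, had a log2 fold change of -0.23 (95% interval -0.46 to 0.0011, adjusted p = 0.185, limma). *Zbtb8os* was at -0.28 (-0.60 to 0.05) and *Zbtb37* at -0.17 (-0.42 to 0.09). *Zbtb14*, which binds GC-rich promoters, was at -0.08 (-0.38 to 0.22). *Zbtb22* was at 0.33 (-0.08 to 0.74), and 5.57% of its exonic bases are shared with *Tapbp*. *Zbtb12*, *Zbtb21*, *Zbtb39*, *Zbtb41*, *Zbtb43*, *Zbtb44*, *Zbtb45*, *Zbtb6* and *Zbtb8a* had log2 fold changes between -0.05 and 0.16. Of all 37 tested members, 23 had changes under 0.2 on the log2 scale in either direction.

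Apart from *Zbtb16*, the members that could not be tested were *Zbtb7c*, *Zbtb8b* and *Zbtb9*. No read was recorded for *Zbtb7c* or *Zbtb8b* in any library, which allows up to 3 reads per library, or 2.29 to 4.11 normalized counts, by counting error alone. *Zbtb9* had at most 1 read per library. Since 84.4% of its exonic bases are shared with *Ggnbp1* on the same strand, reads there may have been assigned to neither gene, and the level of *Zbtb9* is uncertain.

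Levels between genes were compared as normalized counts per kilobase of exon, with exons merged over annotated transcripts. The mean over both groups ran from 19.8 for *Zbtb42* to 968 for *Zbtb7a*, with a median of 232. The 3 highest were *Zbtb7a* (1035 ± 107 in WT and 901 ± 114 without hnRNPL), *Zbtb18* (989 ± 75.4 and 911 ± 69.8) and *Zbtb33* (766 ± 171 and 946 ± 191), all per kilobase with SD and n = 3. The ranges of these 3 overlapped in both groups. *Zbtb32* was level with them in WT, at 928 ± 152 per kilobase, and stood at 513 ± 125 without hnRNPL, near *Zbtb11* (467 ± 27.6). *Zbtb18*, which encodes the repressor RP58 known from neurons, had 6577, 5970 and 5667 normalized counts in WT and 6071, 5243 and 5466 without hnRNPL. The groups overlapped at a log2 fold change of -0.12 (95% interval -0.35 to 0.12, adjusted p = 0.493, limma). From 100 to 500 per kilobase lay 26 of the 37 members. Under 100 were *Zbtb3*, *Zbtb48*, *Zbtb49*, *Zbtb8a*, *Zbtb46* and *Zbtb42*. *Zbtb42* moved from 10.9 ± 1.44 in WT to 28.6 ± 5.18 per kilobase without hnRNPL, where it was level with *Zbtb46* (27.8 ± 2.88).

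**Figure D4:**
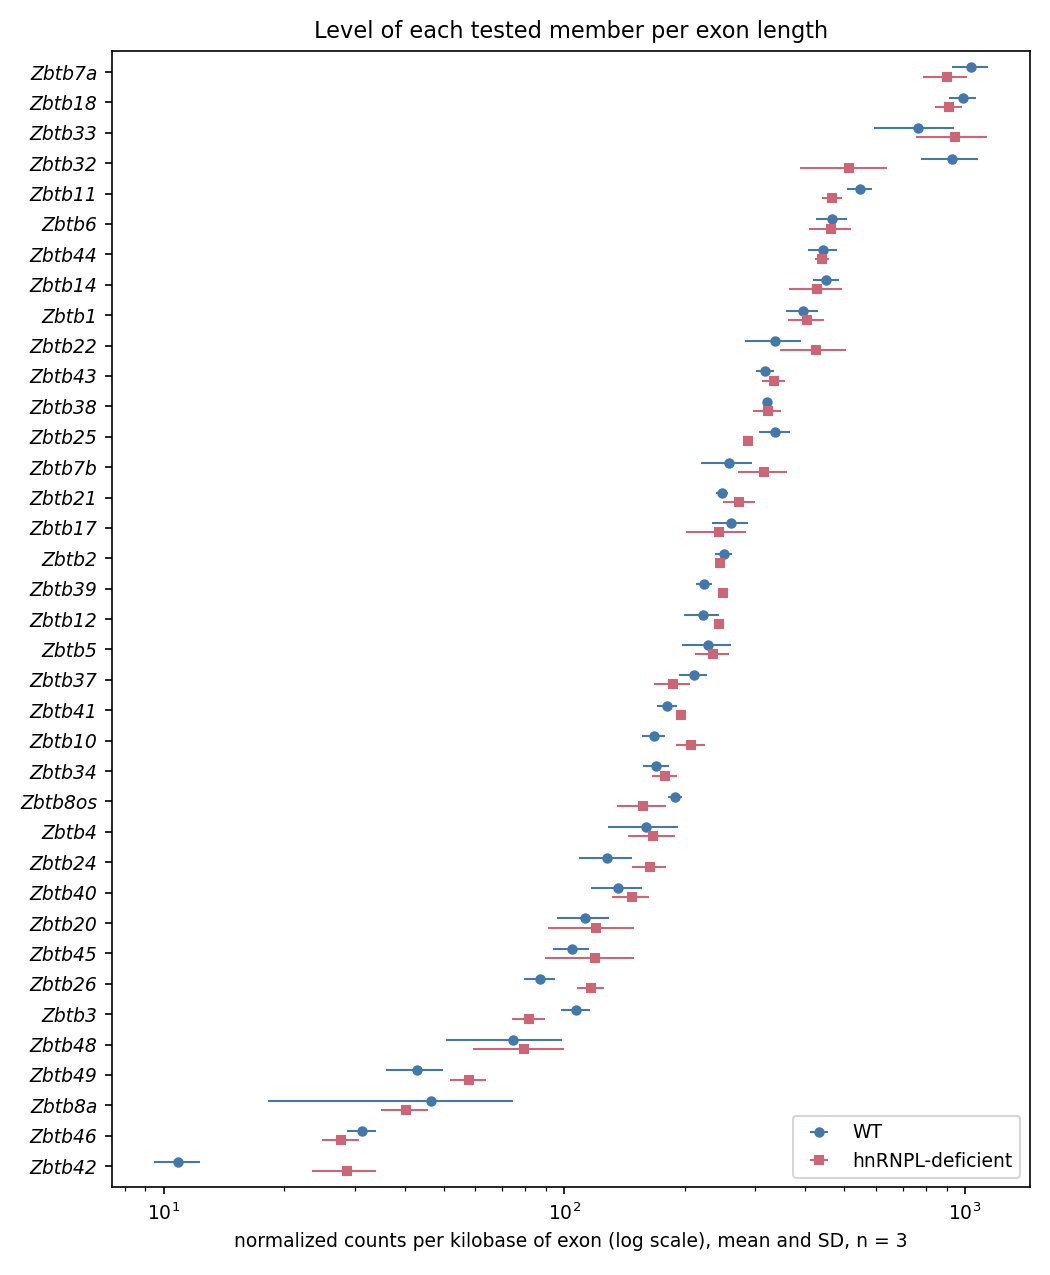
Normalized counts per kilobase of exon (x axis, log scale) of the 37 tested members in WT (blue circles) and hnRNPL-deficient cells (red squares), as mean and SD of 3 libraries, ordered by the mean of both groups. The groups part most for *Zbtb32*, from 928 to 513, and for *Zbtb42*, from 10.9 to 28.6.

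The 40 ZBTB genes lie on 15 chromosomes and differ in their number of fingers. A pattern of cysteines 2 to 4 residues apart, 12 residues to the first histidine and 3 to 5 to the next was counted in the longest coding sequence of each gene (GENCODE, GRCm38). The count ran from 1 to 14 with a median of 4. *Zbtb41* had 14, *Zbtb17* had 13, *Zbtb32* had 3 and *Zbtb42* had 4. The count is of this strict pattern, and fingers that depart from it are missed. In promoters, the 48 RefSeq windows of 35 members held a median of 20 CpG dinucleotides, against 6 over all windows. The windows of *Zbtb32* held 2 and 5, fewer than those of most members. *Zbtb7c*, *Zbtb10*, *Zbtb16*, *Zbtb40* and *Zbtb48* were not in the promoter table.

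Some members sit next to each other. *Zbtb1* and *Zbtb25* start 664 bases apart on opposite strands of chromosome 12, and their log2 fold changes were 0.03 and -0.22. *Zbtb34* and *Zbtb43* start 37235 bases apart on chromosome 2 and had the same log2 fold change of 0.07. On chromosome 4, *Zbtb8a*, at -0.05, starts 42421 bases from *Zbtb8os*, at -0.28, on the opposite strand, and the neighbouring *Zbtb8b* had no reads. None of these neighbours was called.

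The antisense gene *Zbtb11os1*, which starts 734 bases from *Zbtb11* on the opposite strand of chromosome 16 and is no member, fell. It had 53.4, 83.9 and 84.1 normalized counts in WT and 30.7, 31.3 and 30.2 without hnRNPL, with no overlap. The log2 fold change was -1.21 (SE 0.29, adjusted p = 0.0309, limma). The call was lost without WT library 2 (adjusted p = 0.119) and without WT library 3 (adjusted p = 0.132), at log2 fold changes of -1.10 each. The reads were counted by strand, and *Zbtb11* on the other strand was at -0.23.

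BTB zinc finger genes that carry other names were counted for comparison. Of 8 such relatives, all tested, 3 rose and none fell, which is 37.5% against 7.28% higher among all genes. *Bcl6* had 1447, 1675 and 1801 normalized counts in WT and 2423, 2732 and 2515 without hnRNPL, a log2 fold change of 0.64 (SE 0.12, adjusted p = 0.0111, limma). Without WT library 1 it was at 0.56, under 1.5-fold. *Hic1*, a growth-restraining repressor and p53 target, went from 15.4 ± 4.25 to 66.6 ± 14.9 normalized counts (SD, n = 3), and *Gzf1* from 442 ± 40.0 to 717 ± 32.3. *Zfp131*, the relative with the highest level, had a log2 fold change of -0.18 (95% interval -0.43 to 0.08). The relatives were chosen with earlier results of these data known, and their difference from members or from all genes was not tested.

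Of the 17 genes for known partners of BTB domains (NCOR, BCOR, SIN3, histone deacetylases, CTBP, CHD4 and CUL3 among them), 0 were called with limma, 0 with edgeR and 0 with DESeq2, and 2 had an unadjusted p under 0.05 in limma. These were *Hdac1* at 0.36 (adjusted p = 0.0869, limma) and *Chd4* at -0.43 (adjusted p = 0.0742, limma), both past the adjusted p and under 1.5-fold. For comparison, 11.4% of all tested genes were called and 27.4% had an unadjusted p under 0.05 (limma). *Bcor* and *Ncor1* had log2 fold changes of -0.10 and -0.01.

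Of 12 genes linked to ZBTB factors, directly or through a target, 2 rose and 2 fell. This is 33.3% called against 11.4% of all tested genes. The list was chosen with earlier results of these data known, so the difference in share is a description only. The cyclin-dependent kinase inhibitors *Cdkn1a* (log2 fold change 3.34, SE 0.14) and *Cdkn2b* (1.46, SE 0.24) rose, and *Ccnd2*, encoding cyclin D2 (-1.09, SE 0.15), and *Hells*, encoding the chromatin remodeler that works with CDCA7 (-0.95, SE 0.16), fell, with adjusted p values up to 0.00892 (limma). *Cdca7*, the target of ZBTB24, was at -0.49 (adjusted p = 0.0505) while *Zbtb24* was at 0.36, neither past 1.5-fold. *Ciita* and *Prdm1*, both linked to ZBTB32 in plasma cell differentiation, were at -0.03 (95% interval -0.38 to 0.32) and -0.04 (-0.37 to 0.29). *Myc*, the partner of MIZ-1, was at -0.44 (adjusted p = 0.0976). Without hnRNPL-deficient library 1 *Cdca7* also passed both thresholds, and without library 2 *Myc* did.

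**Figure D5:**
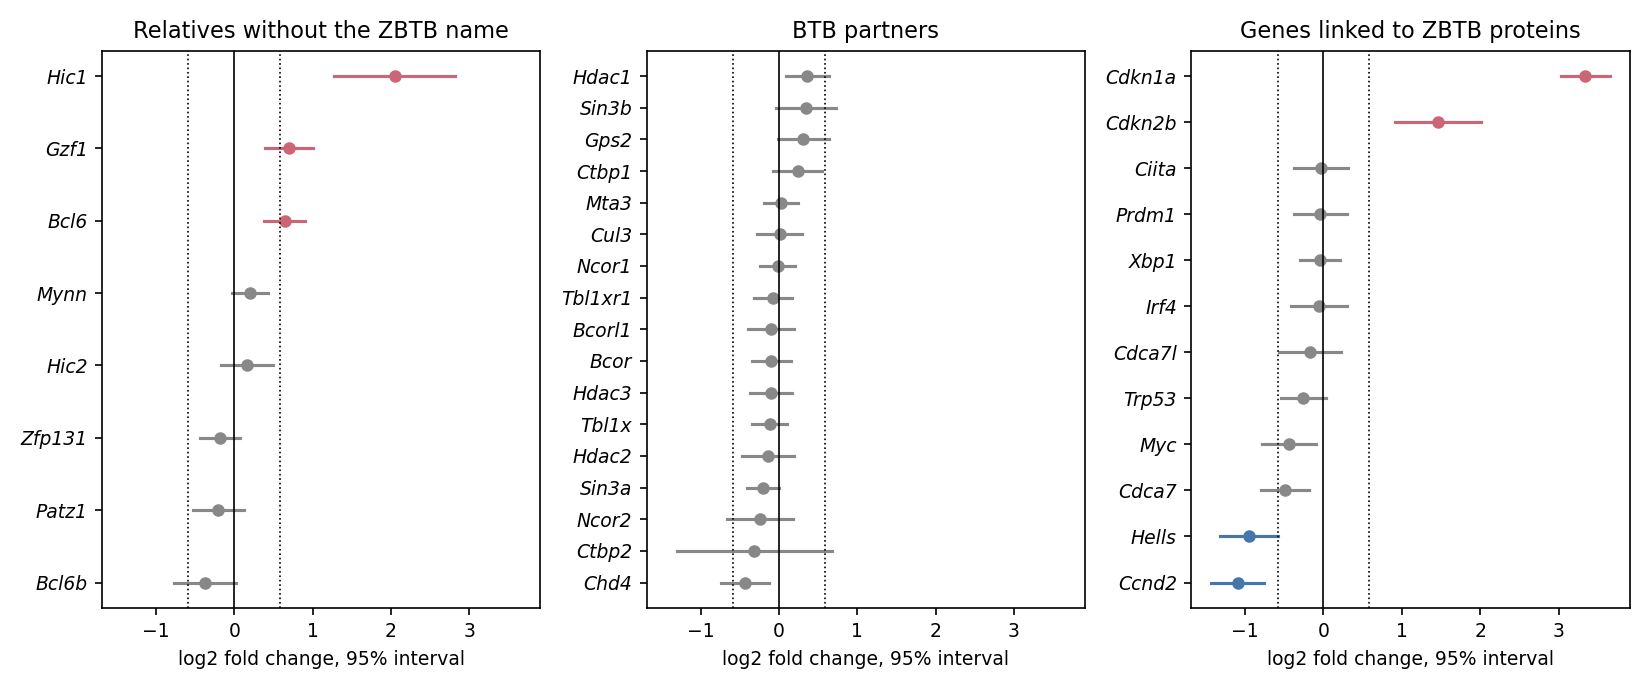
Log2 fold change (hnRNPL-deficient over WT, x axis) with 95% intervals for 8 relatives, 17 BTB partners and 12 genes linked to ZBTB proteins, red where called higher, blue where called lower and grey where not called. *Hic1*, *Gzf1* and *Bcl6* lie to the right of the dotted 1.5-fold line, no partner was called, and *Cdkn1a* at 3.34 lies farthest out.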

How the data were processed

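RNA-seq of sorted GFP+ splenic B cells (6 libraries, poly(A)-selected and paired-end) was used. The authors trimmed reads with fastp 0.23.1, aligned them with STAR 2.7.9a to mm10, counted them by strand per GENCODE gene with featureCounts, and divided the counts by DESeq2 1.38.2 size factors. What was deposited is this scaled signal, 1 column per library, called normalized counts. The deposited table also holds the authors' own comparison (log2 fold changes, SEs, a test score, and raw and adjusted p-values), none of which was used. Groups followed the labels, and p-values measure the spread between these replicate samples.

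Genes averaging 10 or more normalized counts were tested with limma 3.58.1 (R 4.3.3) on log2(value + 1), with a mean-variance trend. Adding 1 understates the change of low genes. The members are the genes the name rule takes. They and the lists of relatives, partners, linked genes and markers were chosen with earlier results of these data known. Named in detail are called members, those under the adjusted p only, *Zbtb40*, which the study names, the 3 highest per kilobase and the 3 largest changes not called, and called genes of the other lists.

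All values divided by the smallest one came out whole (within 0.01) in every library. The column of hnRNPL-deficient library 2 did not meet an automatic test of whole reads, so edgeR 4.0.16 (quasi-likelihood, TMM) and DESeq2 1.42.0 were run on the reads of 5 libraries. The test code was tried on simulated data with the same spread setting for all genes, which cannot show its error rate on these data. Alternatives were pseudocounts, filters, scalings, thresholds, the replicate number as a block, and each library left out. An exact permutation test of 3 against 3 libraries cannot go below p = 0.1 and was not used. Coordinates are from GENCODE (GRCm38, the build of mm10, an earlier release than the authors'), promoters from RefSeq (GRCm38.p6). Isoforms and splicing were not analysed here.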

Additional observations from a re-analysis of the deposited data

How the results depend on the processing

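*Zbtb32* and *Zbtb42* remained the 2 members called, in the same directions, under pseudocounts of 0.5 and 5, both other filters, scaling to equal totals, quantile normalization, no mean-variance trend, each library left out, and edgeR and DESeq2 on the reads of 5 libraries. At an adjusted p under 0.05 and 2-fold, 1 member was called (*Zbtb42*), with 826 of all genes, 1 relative (*Hic1*) and 3 linked genes. With each library left out in turn, 2 members were called every time, while the count over all genes ran from 1308 (without WT library 3) to 1807, against 2003 with all 6 libraries. The relatives called were 2 to 3, and the linked genes 4 to 5. *Zbtb40* went from 0.12 to -0.0012 without WT library 1 (adjusted p = 0.997, limma), and up to 0.21 without WT library 2. The labels do not say whether the replicate numbers pair the samples, and the main fit did not use them. Deviations from the group means correlated at 0.429, 0.320 and 0.0663 for numbers 1, 2 and 3. Each hnRNPL-deficient library correlated best with the WT library of its number. For number 3 the margin was small, 0.0663 against 0.0501 with WT library 1. WT library 3 in turn correlated best with hnRNPL-deficient library 2 (0.305). Whether the samples were paired cannot be told from this. With the replicate number as a block the same 2 members and 2773 of all genes were called. Members with an unadjusted p under 0.05 were then 12 against 6 in the main fit, and all genes 6730 against 4830 (limma). *Zbtb33* (adjusted p = 0.0440), *Zbtb49* (0.0446) and *Zbtb24* (0.0602) came under 0.1 with the block, all under 1.5-fold (limma). The limma values given above are from fits without the block unless stated. Scaling moved the median of all genes from -0.03 to 0.03. With 3 libraries per group, standard errors of the tested members ran from 0.10 to 0.38 on the log2 scale, the widest being that of *Zbtb8a*.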
